A study of Mus musculus with 8 samples.

Results

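The major urinary protein genes (Mup genes) were followed in RNA from wildtype mouse liver and from liver lacking Foxo1. The 8 genes Mup1, Mup3, Mup7, Mup11, Mup12, Mup17, Mup20 and Mup21 were chosen by name, and each had 1 row among the 25690 genes of the deposited table. There were 4 wildtype libraries, numbered 1, 3, 10 and 12 in their titles, and 4 knockout libraries, numbered 3, 9, 10 and 11. The labels give the tissue as liver and the genotypes as wildtype control and hepatic FOXO1 knockout. The sources used here give no strain, sex, age or feeding state and do not say how the deletion was made. Whether each library is a different animal is not stated, and a p-value here reflects only how much these libraries vary, which may be technical. Values are FPKM, fragment numbers scaled by the length of the transcript and by the mapped fragments of the library.

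Major urinary proteins are lipocalins, small barrel-shaped proteins that the mouse liver secretes into blood and that pass into urine, where they bind and slowly release volatile pheromones. Liver Mup expression is known to be driven by pulses of growth hormone through STAT5B, with testosterone and thyroid hormone adding to it, and is usually higher in males. FOXO1 is a forkhead protein that activates genes of the fasted liver and that insulin excludes from the nucleus. The genes lie in a single block of chromosome 4 whose central copies are young duplicates, whereas the copies towards its ends, such as Mup3, Mup20 and Mup21, are older and more divergent.

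Only part of the family could be read from the table. Mup3, Mup20 and Mup21 were above 0 in every library, Mup17 was above 0 in 2 libraries, and the other 4 members were listed at 0 in all 8. The same held for the 13 other rows named Mup with a number: Mup4, Mup5 and Mup6 were above 0 in every library, and 10 rows were at 0 throughout. Pseudogenes named Mup-ps were not counted among the Mup rows here or below. Mup22, which the annotation also holds, was not analysed here. An exact 0 in such a table can be a failed estimate, so these rows are described as listed at 0 and not as silent.

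The division between rows with and without a value followed how much sequence a copy shared with others. Each annotated transcript was broken into all its stretches of 50 bases, and the share of stretches that also occur in a transcript of another gene was counted. Among the 14 Mup rows at 0 throughout this share lay between 85.4% and 100%, with a median of 91.5%. It was 78.1% for Mup17. Among the 6 rows above 0 in every library it lay between 4.33% and 50.5%, and the highest, that of Mup20, came mostly from the pseudogene Mup-ps19, which shared 48.0% of the stretches. With stretches of 100 bases the ranges were 65.95% to 100%, 59.4%, and 0% to 38.8%. The sources used here do not give the read length or the treatment of multiply aligned reads, and the part of shared sequence in the zeros was not tested.

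**Figure D1:**
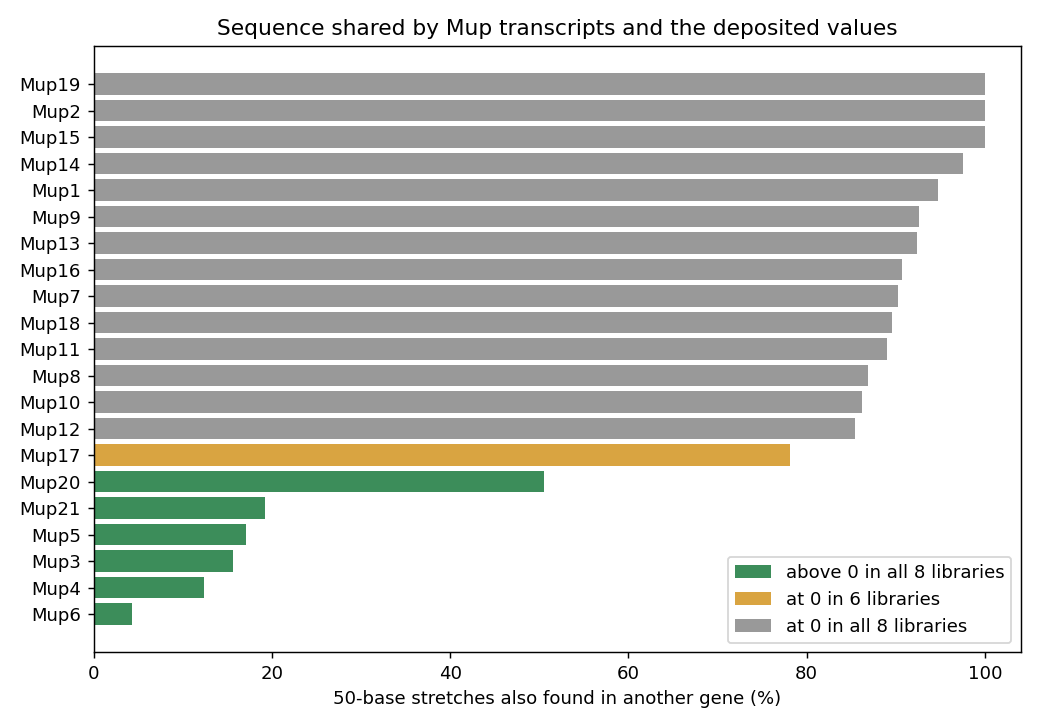
Share of the 50-base stretches of each Mup transcript that also occur in another annotated gene (horizontal axis, percent), 1 bar per Mup row of the table, coloured by the number of libraries in which the row is listed at 0. The 6 rows with a value in all 8 libraries have the 6 lowest shares, Mup17 comes next, and the 14 rows at 0 throughout lie at 85.4% or above.

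A stretch of 90 coding bases shows the same division letter by letter. It is the ungapped stretch in which Mup3, Mup20 and Mup21 together differed most from Mup17, and covers positions 243 to 332 of the Mup17 coding sequence, counted from the first base of the start codon. Sequences are from the GENCODE transcripts, written 5′ to 3′ in lower case, with capitals for bases that differ from Mup17.
Mup17: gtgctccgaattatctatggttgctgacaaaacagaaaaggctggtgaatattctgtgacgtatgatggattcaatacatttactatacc
Mup1: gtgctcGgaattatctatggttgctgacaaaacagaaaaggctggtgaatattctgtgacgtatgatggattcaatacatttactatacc
Mup7: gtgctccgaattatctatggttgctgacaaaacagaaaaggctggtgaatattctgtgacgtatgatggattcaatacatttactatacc
Mup11: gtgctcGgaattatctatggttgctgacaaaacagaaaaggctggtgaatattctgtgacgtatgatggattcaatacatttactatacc
Mup12: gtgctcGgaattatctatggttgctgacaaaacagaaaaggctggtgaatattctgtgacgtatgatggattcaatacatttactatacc
Mup20: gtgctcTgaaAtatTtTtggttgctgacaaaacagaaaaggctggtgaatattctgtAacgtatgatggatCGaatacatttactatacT
Mup21: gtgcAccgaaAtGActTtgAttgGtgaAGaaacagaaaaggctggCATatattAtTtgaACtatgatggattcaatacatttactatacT
Mup3: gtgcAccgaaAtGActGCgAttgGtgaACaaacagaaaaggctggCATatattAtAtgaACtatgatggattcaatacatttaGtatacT
Mup7 was identical to Mup17 here, and Mup1, Mup11 and Mup12 differed at the same single base. Mup20 differed at 8 bases, Mup21 at 17 and Mup3 at 19. Over whole coding sequences, the 105 pairs among Mup17 and the 14 rows at 0 throughout were 98.3% to 100% identical. Against the same genes Mup3, Mup20 and Mup21 were 85.3% to 91.5% identical. Mup3 and Mup21 were closest to each other, at 96.3%, while Mup20 was 89.2% identical to Mup3 and 88.6% to Mup21.

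Mup3 (ENSMUSG00000066154, mm10 chromosome 4, 62083476 to 62087342, minus strand, protein-coding) had the highest listed value of the Mup rows in each wildtype library. Copies listed at 0 could not be ranked against it. Mup3 fell in the knockout. Its FPKM in wildtype libraries 1, 3, 10 and 12 was 19587, 20030, 18857 and 18648. In knockout libraries 3, 9, 10 and 11 it was 9158, 13024, 14445 and 11609. The groups did not overlap: even knockout 10, the highest of its group, lay below wildtype 12, the lowest of the controls. The means were 19280 ± 642 and 12059 ± 2254 FPKM (SD, n = 4 each), 1.60-fold lower in the knockout. On the scale of log2(FPKM + 1) the change was -0.70 (SE 0.16, limma adjusted p = 0.0198). In bulk tissue, fewer cells of a type and less RNA per cell cannot be told apart.

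Of the 8 members, 4 had a mean of at least 1 FPKM and were tested, Mup17 only through its values in knockouts 3 and 11. Of the 4 tested, 1, Mup3, was called lower and 0 higher, also 0 higher at an unadjusted p under 0.05. Among all 10250 tested genes 11.7% were called lower and 2.7% higher, so a single lower call among 4 is not a result about the family. For 16.5% of tested genes every knockout library lay below every wildtype library, as for Mup3. Over all genes the calls were split 277 higher and 1195 lower, and the share of higher calls, 18.8%, was 40.2% with median-ratio scaling, 41.9% with quantile normalization, 40.3% after removal of a GC content trend and 46.9% after removal of a transcript length trend. Short transcripts were lower in general: 296 tested genes with a transcript within 10% of the length of Mup3 (886 to 1082 bases) had a median log2 change of -0.31, and 37.5% of them were called lower. The change of Mup3 was further below 0 than that of most of these genes, since 8.11% of them had a lower one. Once the length trend was removed Mup3 did not pass (-0.40, limma adjusted p = 0.0908), with quantile normalization (-0.55, adjusted p = 0.171), with no filter on low values (adjusted p = 0.147), or without wildtype 1, 3, 10 or 12, each alone (adjusted p = 0.0676, 0.0604, 0.0550 and 0.0563).

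Mup20 (ENSMUSG00000078672, chromosome 4, 62050234 to 62054158, minus strand, protein-coding) encodes darcin, a urinary protein of males that attracts females. Its FPKM in wildtype libraries 1, 3, 10 and 12 was 5544, 8742, 7532 and 5495. In knockout libraries 3, 9, 10 and 11 it was 4414, 13063, 19198 and 6740. Knockouts 9 and 10 lay above every wildtype library, knockout 11 lay within the wildtype range, and knockout 3 was the lowest of all 8 libraries, so the groups overlapped. The means were 6828 ± 1590 and 10854 ± 6656 FPKM (SD, n = 4 each). The log2 change of 0.47 (SE 0.41) did not pass (limma adjusted p = 0.488). Without knockouts 3 and 11 together, the pair with high acute phase transcripts described below, it was 1.24 and passed (limma adjusted p = 0.0281), where 1.94% of all tested genes were called higher. Only knockouts 9 and 10 remain in that comparison.

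Mup21 (ENSMUSG00000066153, chromosome 4, 62147932 to 62150863, minus strand, protein-coding) is the last member of the block. Its FPKM in wildtype libraries 1, 3, 10 and 12 was 4013, 3869, 3954 and 3480. In knockout libraries 3, 9, 10 and 11 it was 2464, 4107, 3499 and 2480. Knockouts 3 and 11 were low and knockouts 9 and 10 lay at the wildtype level or above it. The means were 3829 ± 240 and 3137 ± 807 FPKM (SD, n = 4 each), and the log2 change of -0.32 (SE 0.18) did not pass (limma adjusted p = 0.260). With the length trend removed the estimate was 0.053.

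**Figure D2:**
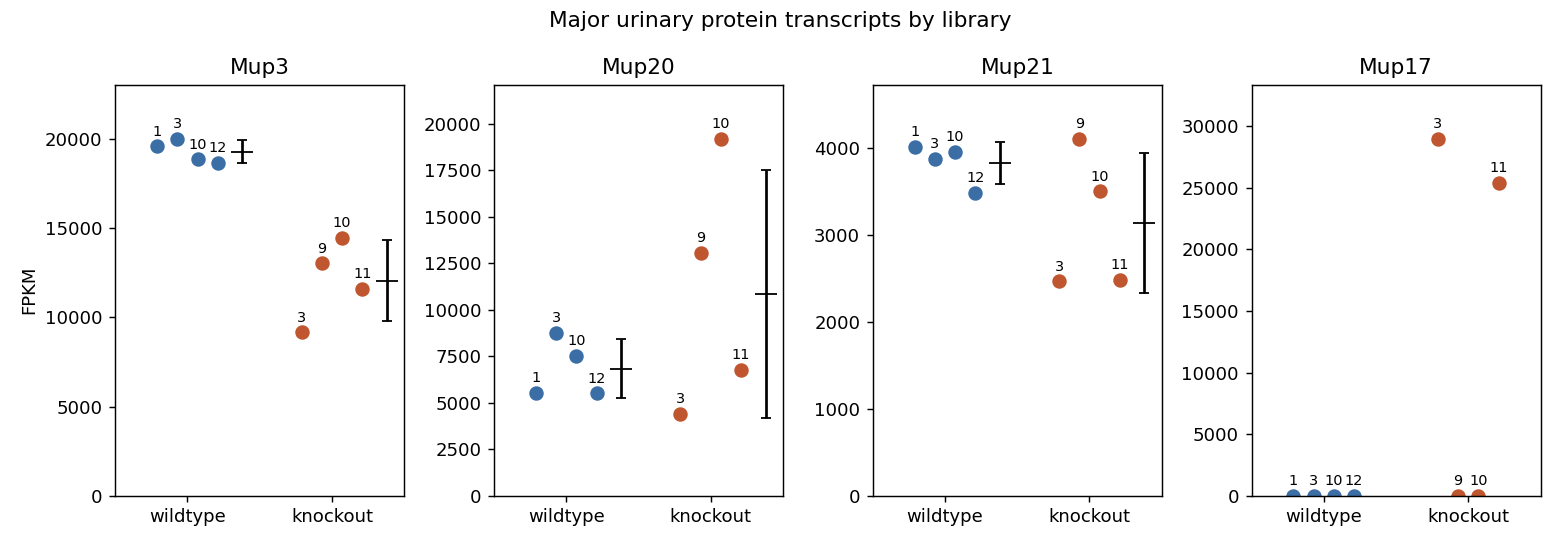
FPKM (vertical axes, linear, starting at 0) of Mup3, Mup20, Mup21 and Mup17 in the 4 wildtype and 4 knockout libraries; each point is a library with its number, and bars give the mean ± SD of 4 libraries where no library is at 0. Mup3 is lower in every knockout library, Mup20 and Mup21 overlap between groups, and Mup17 is listed above 0 only in knockouts 3 and 11.

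Mup17 (ENSMUSG00000096688, chromosome 4, 61591929 to 61595871, minus strand, protein-coding), a central copy, had the value 0 in 6 libraries: all 4 of wildtype, knockout 9 and knockout 10. In knockouts 3 and 11 it was at 29001 and 25389 FPKM, the 2nd and 5th highest value among all genes of those libraries. It was tested with its zeros as values and did not pass (limma adjusted p = 0.177). No fold is given against a group listed at 0. At the estimated depths a single fragment of this transcript would be worth 0.0309 to 0.0402 FPKM. Those depths could only fall inside a fixed window searched, so this scale is rough. What produced the zeros was not tested. Apart from Mup17 only Alb, the albumin gene, at 0 in knockout 10, and Gm27747, at 0 in knockouts 3 and 10, were at 0 in some library and at 1000 FPKM or more in another. The libraries with a value for Mup17 were also those with high acute phase transcripts: Saa1, which encodes a serum amyloid A protein of inflammation, was at 28413 and 33012 FPKM there. Its level was 573 in knockout 9, 266 in knockout 10 and 78.3 to 195 across wildtype. The part of inflammation in the Mup17 values was not tested.

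Summing the rows shows how far the listed sum rests on that 1 gene. Rows without a value add nothing to the sum, and such an entry can be a failed estimate. The sums and shares below are therefore of listed values only. They are not totals of the family and do not rank the libraries by Mup RNA. All 21 Mup rows together came to 29670, 33148, 30820 and 28060 FPKM in wildtype 1, 3, 10 and 12. In knockouts 3, 9, 10 and 11 the sum was 45367, 31597, 37543 and 46528. Without Mup17 it was 16366 in knockout 3 and 21139 in knockout 11, the lowest of all 8 libraries, in place of the highest. The group means without Mup17 were 30425 ± 2140 in wildtype and 26661 ± 9648 FPKM in knockout liver (SD, n = 4 each), and the groups overlapped. Mup rows without Mup17 made up 3.29% to 3.82% of the summed FPKM of all genes in wildtype and 1.91% to 4.66% in knockout libraries.

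**Figure D3:**
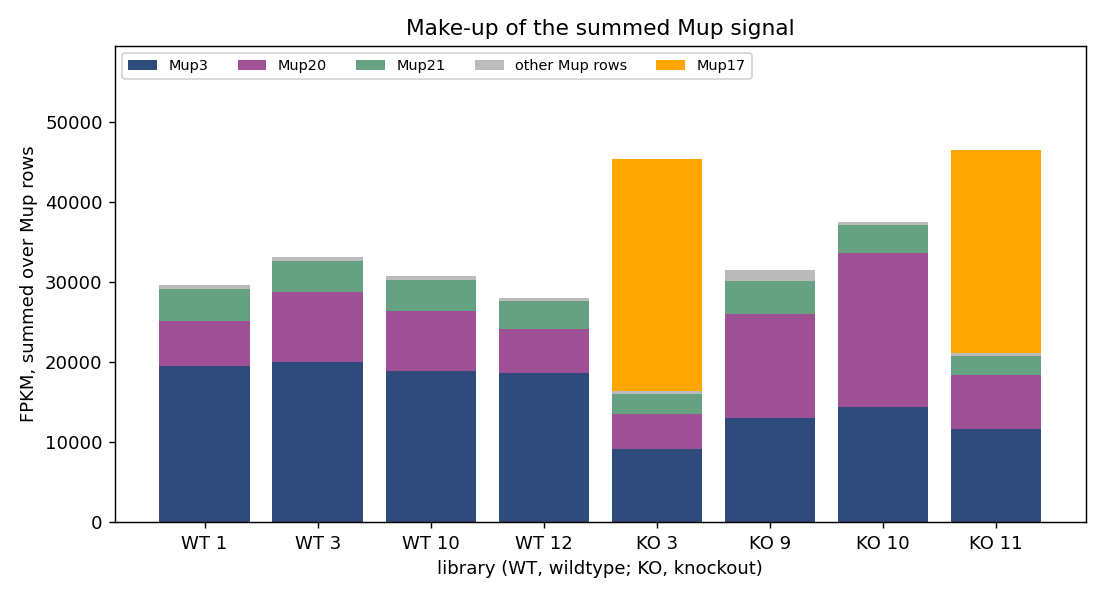
Summed FPKM of the Mup rows in each library (vertical axis, linear, starting at 0), stacked by gene, for wildtype (WT) and knockout (KO) libraries named by their number. Without the Mup17 segment, knockouts 3 and 11 have the lowest sums of listed values, 16366 and 21139. With that segment they have the highest, 45367 and 46528. Rows without a value add no segment, so the bars are not totals of the family.

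Ratios between members within a library do not depend on how a library was scaled. All 3 ratios among the members above 0 in every library were compared, a comparison chosen after their values were seen. The ratio of Mup20 to Mup3 was 0.283, 0.436, 0.399 and 0.295 in wildtype 1, 3, 10 and 12. It was 0.482, 1.003, 1.33 and 0.581 in knockouts 3, 9, 10 and 11, so the groups did not overlap, also not through knockouts 3 and 11. Its geometric mean was 2.25-fold higher in the knockout (exact permutation test, two-sided, p = 0.0286, adjusted over 3 ratios 0.0429), and 0.0286 is the smallest p that 4 against 4 libraries allow. The ratio of any gene to Mup3 carries the fall of Mup3 with it: for 56.2% of the 10249 other tested genes every knockout library was above every wildtype library in this ratio. The separation is therefore not a result about Mup20. The transcripts taken for length were 984 bases for Mup3 and 928 for Mup20.

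The ratio of Mup21 to Mup3 was 0.199 ± 0.0106 in wildtype and 0.260 ± 0.0432 in knockout liver (SD, n = 4 each), 1.30-fold higher by geometric means and also without overlap (exact permutation test, two-sided, p = 0.0286, adjusted 0.0429). The lowest knockout value, 0.214 in knockout 11, lay just above the highest wildtype value, 0.210 in wildtype 10, and Mup21 has the shorter transcript, at 677 bases. The ratio of Mup20 to Mup21 overlapped between groups, at 1.78 ± 0.385 and 3.29 ± 1.57 (exact permutation test, two-sided, p = 0.0857, adjusted 0.0857). With any library left out no ratio can pass, since 3 against 4 libraries allow no p below 0.0571. The ratios to Mup3 share its values and restate its lower level in the knockout. They are not independent of it.

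**Figure D4:**
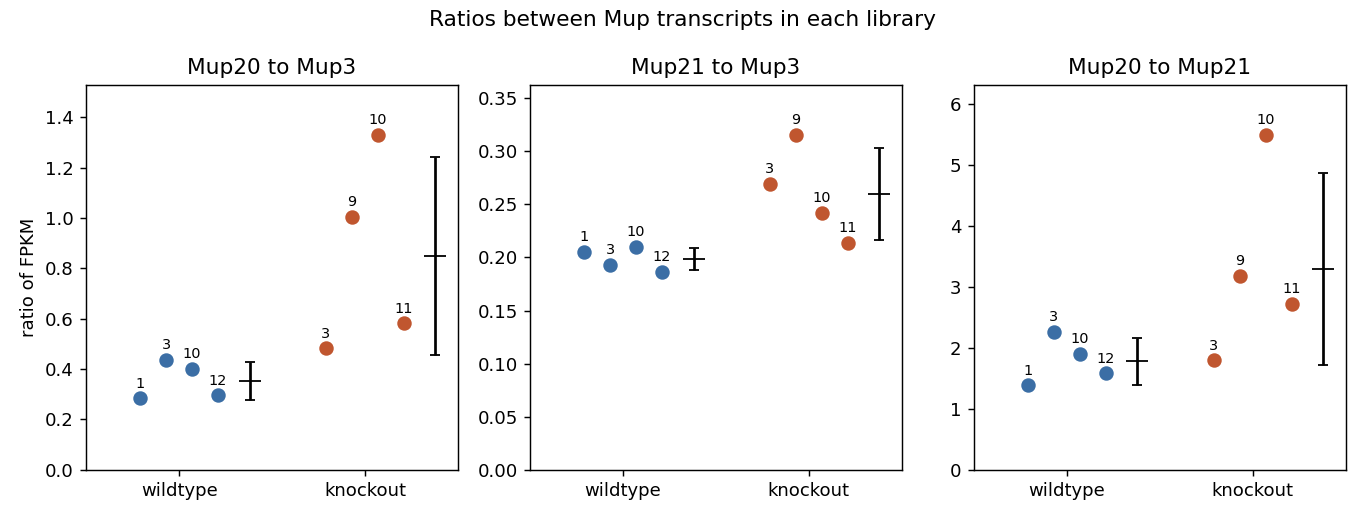
Ratio of the FPKM of 2 Mup genes within each library (vertical axes, linear, starting at 0) for the 3 pairs among Mup3, Mup20 and Mup21; points are libraries with their numbers and bars give the mean ± SD of 4 libraries. The ratios to Mup3 do not overlap between wildtype and knockout, and the ratio of Mup20 to Mup21 does.

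Among the Mup rows above 0 in every library, the order of levels changed with the libraries. In wildtype liver it was Mup3, then Mup20, then Mup21 in each of the 4 libraries, with no overlap between neighbours. In the knockout Mup20 and Mup3 did not differ beyond their spread, and Mup20 was above Mup3 in knockouts 9 and 10. Mup5, a gene also known from secretory glands, came next at 479 ± 37.3 FPKM in wildtype, and its level was 328, 1394, 391 and 306 in knockouts 3, 9, 10 and 11. Mup4, known from nasal tissue, and Mup6 were the lowest, at 3.72 to 6.47 and 2.03 to 4.45 FPKM in wildtype, ranges that overlapped. None of these 3 passed (limma adjusted p = 0.569 for Mup4, 0.986 for Mup5 and 0.550 for Mup6), and without knockout 9 Mup5 was lower (-0.49, adjusted p = 0.0292), where 12.6% of all tested genes were called lower and 3.51% higher.

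Promoter sequence was available in the RefSeq table for 5 members: Mup3, Mup7, Mup11, Mup17 and Mup21. The 120 bases before the RefSeq start of the 3 with values are shown, for the gene that fell and 2 of its relatives. They lie on the minus strand of GRCm38.p6 at chr4:62087318-62087437 for Mup3, chr4:62150842-62150961 for Mup21 and chr4:61595833-61595952 for Mup17, and capitals mark the motif TATATAAG.
Mup3: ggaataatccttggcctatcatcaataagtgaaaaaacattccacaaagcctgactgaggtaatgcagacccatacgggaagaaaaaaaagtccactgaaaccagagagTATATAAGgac
Mup21: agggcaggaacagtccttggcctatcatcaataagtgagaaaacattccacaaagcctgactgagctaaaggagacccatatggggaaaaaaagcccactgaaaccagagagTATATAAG
Mup17: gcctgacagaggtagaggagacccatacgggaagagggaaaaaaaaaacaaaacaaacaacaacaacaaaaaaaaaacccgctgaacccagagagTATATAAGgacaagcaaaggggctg
The motif begins at position -11 in Mup3, -8 in Mup21 and -25 in Mup17, counted back from the start that RefSeq gives. GENCODE starts these genes further upstream, at 62087342 for Mup3, 62150863 for Mup21 and 61595871 for Mup17, inside the printed stretches. By those starts the motif and the bases around it lie within the gene and not before it. In windows of 300 bases, from 250 before to 50 after the start, and on both strands, TATATAAG occurred in 4 of the 5 members, all but Mup7, and in 1.01% of 32851 promoters. The motif TTCNNNGAA, bound by STAT5, occurred in 0 of the 5 and in 8.3% of all promoters. The FoxO motif GTAAACA occurred in 0 of the 5 and in 3.65% of all promoters. With a single motif matched in the members, no 2 motifs overlapped. No match says only that these letters are not in this window.

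Genes of growth hormone signalling were read next. Of 22 tested genes of the pathway, its targets and known regulators of Mup genes, 2 rose and 0 fell, where 2.7% of all tested genes were called higher and 11.7% lower. The list median was 0.05, against -0.08 for all tested genes. The growth hormone receptor gene Ghr was at 266 ± 34.7 FPKM in wildtype and 251 ± 28.9 in knockout liver (limma adjusted p = 0.692). Stat5b, its transcription factor, was at 6.92 ± 0.966 and 5.47 ± 0.452 (limma adjusted p = 0.111). Igf1, a hormone gene that growth hormone drives, was at 578 ± 44.4 and 599 ± 64.5 (limma adjusted p = 0.798). Zhx2, a regulator known to set strain levels of Mup genes, was at 2.07 ± 0.588 and 2.55 ± 0.634 (limma adjusted p = 0.444).

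Feedback genes that follow growth hormone pulses varied widely within both groups. Socs2 ranged from 7.93 to 35.2 FPKM in wildtype and from 2.22 to 21.7 in knockout libraries (limma adjusted p = 0.343). Cish was at 1.94, 4.13, 4.07 and 0.582 FPKM in wildtype 1, 3, 10 and 12 and at 22.6, 1.01, 40.02 and 2.83 in knockouts 3, 9, 10 and 11 (limma adjusted p = 0.30). Bcl6, a repressor in the same circuit, ranged from 3.59 to 19.9 and from 2.11 to 21.3 (limma adjusted p = 0.515). The genes that rose were the liver transcription factors Hnf4a (0.43, limma adjusted p = 0.0494) and Foxa3 (0.54, limma adjusted p = 0.0413). Neither passed without knockouts 3 and 11 (adjusted p = 0.227 and 0.143).

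Other liver genes with a known sex bias were read beside the Mup genes. Of 20 male-biased genes that depend on pulsed growth hormone, as Mup genes do, 7 rose and 0 fell, where 2.7% of all tested genes were called higher, and the median log2 change was 0.45. Without knockouts 3 and 11, 8 rose, where 1.94% of all genes were called higher. These counts use the deposited scaling, and the list was not counted under the scalings that raise the share of higher calls. Like all lists here, it was chosen with earlier results of these data known, so its counts are a description. The genes that rose included Moxd1, a monooxygenase-like gene (5.01, limma adjusted p = 0.000706), and the complement gene C8b (0.77, adjusted p = 0.00609). Also among them were the oxysterol hydroxylase gene Cyp7b1 (0.99, adjusted p = 0.0183) and the growth factor receptor gene Egfr (0.82, adjusted p = 0.0188). Of 12 tested female-biased genes 5 fell and 0 rose, where 11.7% of all tested genes were called lower, and the median was -0.34. Without knockouts 3 and 11, 2 fell, where 6.4% of all genes were called lower. The list was likewise not counted under the scalings that lower that share. Cyp3a16 (-0.70, adjusted p = 0.00655) and Cyp2a4 (-1.29, adjusted p = 0.0202), both steroid and drug hydroxylase genes with similar copies, kept their calls there. Fmo2 (-0.75, adjusted p = 0.0104) and Acot3 (-1.60, adjusted p = 0.0135) did not (adjusted p = 0.0629 and 0.0614).

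By library, the male-biased list and Mup20 were highest in the same 2 of the 8 libraries. The list median above the wildtype mean, on the log2 scale, was 0.83 in knockout 9 and 0.60 in knockout 10. It was 0.02 in knockout 3 and 0.10 in knockout 11, where Mup20 was within or below the wildtype range. The acute phase list, of 29 genes, was the reverse: its median was 2.14 in knockout 3 and 1.75 in knockout 11, against 0.13 in each of the other knockout libraries. Of its genes 3 rose, Lrg1 (2.19, limma adjusted p = 0.0147), C3 (0.82, adjusted p = 0.0234) and Fga (0.97, adjusted p = 0.0492), and 1 fell, Rbp4. Among all tested genes 2.7% were called higher and 11.7% lower. Without knockouts 3 and 11, 4 acute phase genes rose and 0 fell, where 1.94% of all genes were called higher and 6.4% lower. The summed FPKM of 6 neutrophil markers, of which 0 were at 0 throughout, was 1.23 to 4.78 in wildtype and 2.43 to 153 in knockout libraries. Mup3 was also lower without knockouts 3 and 11 (-0.49, limma adjusted p = 0.0336, with 6.4% of all genes called lower). Only knockouts 9 and 10 remain in that comparison, where, as given above, 4 acute phase genes still rose. The part of the acute phase or of these cells in the Mup values was not tested.

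Lipocalins outside the Mup block were examined as relatives by fold. Of 10 tested, 2 fell and 0 rose, where 11.7% of all tested genes were called lower, and the median was 0.16. Without knockouts 3 and 11 the count was 3 lower, C8g, Apom (-0.61, limma adjusted p = 0.0231) and Orm3 (-2.03, limma adjusted p = 0.0142), where 6.4% of all genes were called lower, and the median was -0.185. Rbp4, the plasma carrier of vitamin A, went from 3944 ± 333 to 2754 ± 286 FPKM (-0.52, SE 0.12, limma adjusted p = 0.0218), and C8g, a subunit of complement component C8, went from 700 ± 17.6 to 485 ± 64.3 (-0.54, SE 0.11, limma adjusted p = 0.0135). Rbp4 did not pass without knockouts 3 and 11 (adjusted p = 0.0551). Lcn2, a lipocalin of acute inflammation, was at 3.84 to 6.96 FPKM in wildtype, at 902 in knockout 3, 565 in knockout 11, 27.0 in knockout 9 and 9.06 in knockout 10, and did not pass (limma adjusted p = 0.0580). Of the 10 tested genes nearest to the block, 5 on each side, 1 fell and 0 rose. Among all tested genes 11.7% were called lower and 2.7% higher, so this is not a result about the neighbours. The gene that fell was Cdc26, a subunit gene of the anaphase-promoting complex (-0.43, limma adjusted p = 0.0110).

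Members also differed in which genes followed them most closely over the 8 libraries, by Pearson's r of log2(FPKM + 1) among all 10250 tested genes. These are the highest values of many, over points that share the split into groups and the library, and are a description. Mup3 was most like Rida, a deaminase gene that went from 1067 to 526 FPKM (r = 0.992), Cryl1 (0.992) and the pseudogene Rpl10-ps3 (0.990). Mup20 was most like N4bp1 (0.979), the collagen-modifying enzyme gene Plod3 (0.967) and the extracellular superoxide dismutase gene Sod3 (0.963). Mup21 was most like Selenot (0.991), Akirin2 (0.984) and Efemp1 (0.982). The mean profile of the 3 was most like Lcorl (0.981), Bicd2 (0.979), Col14a1 (0.979), Prss53 (0.971) and Cyp2d37-ps (0.966). Between members r was 0.786 for Mup3 with Mup21, 0.414 for Mup20 with Mup21 and 0.069 for Mup3 with Mup20.

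Foxo1, the targeted gene, was at 3.35 ± 0.341 FPKM in wildtype and 0.269 ± 0.0743 in knockout liver (SD, n = 4 each), with no overlap. Values taken as a single fragment gave a rough depth of 26.9 M to 35 M fragments per library. At that depth Mup3 would correspond to about 296977 to 586384 fragments. The depth could only fall inside the fixed window searched. The hepatocyte markers were present as the label liver requires: the summed FPKM of 10 of them was 44977 to 51781 in wildtype and 22072 to 53091 in knockout libraries, and the lowest sum is that of knockout 10, where Alb is listed at 0.

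**Figure D5:**
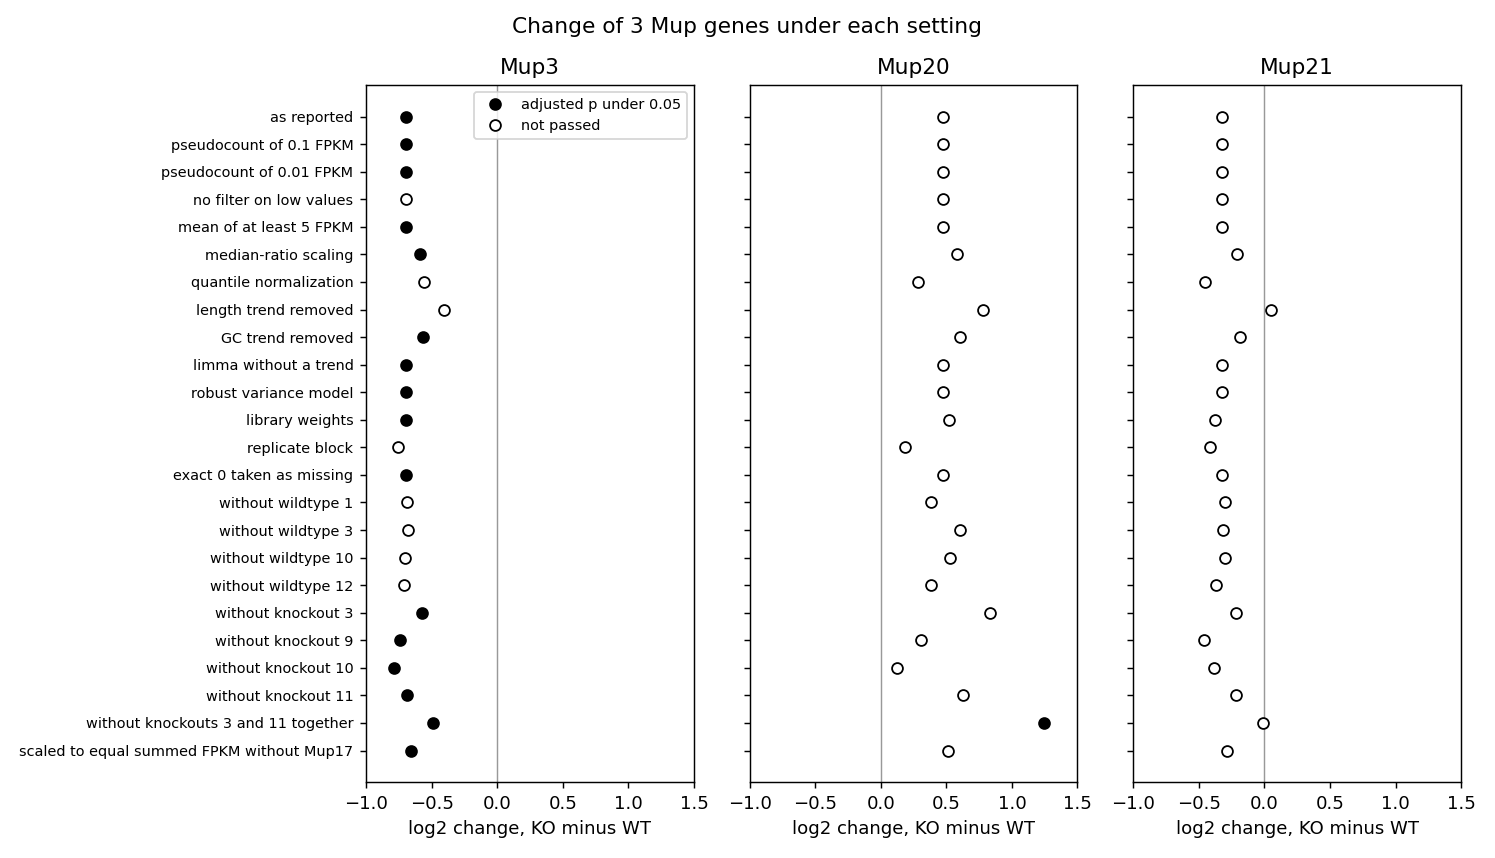
Log2 change of Mup3, Mup20 and Mup21 (horizontal axes, knockout minus wildtype) under each way of processing (rows), with filled points for a limma adjusted p under 0.05. Mup3 is below 0 under every setting drawn, from -0.79 to -0.40, and passes under some; Mup20 is above 0 throughout and passes only without knockouts 3 and 11.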

How the data were processed

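Liver RNA of 4 wildtype and 4 knockout libraries had been prepared with Trizol, DNase and a purification column, per the labels' protocols. The submitters' processing notes name TopHat2 2.1.0, HTSeq, Cufflinks 2.2.1 and build mm10, with no role or order. The authors deposited FPKM for 25690 Ensembl genes, a unit read from the values and these tools; the header names only libraries. The sources used here do not give the strand setting, annotation or treatment of shared reads, so reads of similar copies and of antisense genes cannot be told apart.

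Names (24807 rows), positions and transcripts came from GENCODE M21, on the same build, and promoters from RefSeq. Genes whose mean reached 1 FPKM were fitted as log2(FPKM + 1), a scale that understates changes of low genes, with limma 3.58.1 in R 4.3.3, genotype as the single term, a trend in the variance, and Benjamini-Hochberg adjustment of two-sided p-values over all tested genes, at 0.05. An exact 0 was taken as a value. Ratios were tested with exact permutation (SciPy 1.17.1), and coding sequences aligned with Biopython 1.88. The fit was tested on simulated data of 10250 genes for knockout against wildtype. It recovered 98% of 100 genes with a log2 change of 2 and 81% of 100 with a change of 1. Of 188 calls, 4.79% were of unchanged genes. The simulated noise was independent between genes and libraries, with no shift shared by the genes of a library. The share of false calls in the real data can therefore differ.

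Members and lists were chosen with earlier results of these data known. All 8 members are named, up to 4 passing genes with the smallest adjusted p from each list, and Ghr, Stat5b, Socs2, Cish, Bcl6, Zhx2, Igf1, Foxo1, Saa1, Lcn2 and Alb in every case. Of the genes named beyond this rule, Gm27747, Apom and Orm3 were chosen after their values were seen. Depth was estimated from the lowest values of long genes with a single transcript. Alternatives changed the pseudocount, filter, scaling or variance model, or used library weights, a block for the numbers in the titles, zeros as missing, trends along length and GC content removed, and libraries left out. Scaling without Mup17, and the ratios with their alternatives, were added after seeing the data.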

Additional observations from a re-analysis of the deposited data

Results flagged for a closer look

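In knockout 9 the FPKM of Mup5 was 1394, far from the 306 to 391 of the other knockout libraries and from the 431 to 518 of the wildtype libraries. The gap to the next library took up 0.839 of the range of the group on the log2 scale. It was the 1 library that stood apart in this way among 19 groups of 4 checked over Mup rows and ratios, where chance gives about 1 in 20. Its cause was not tested.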

How the results depend on the processing

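The number of Mup members called lower, 1, was 0 with no filter on low values, quantile normalization, the length trend removed or the replicate block, and 0 to 1 with 1 library left out. The number called higher, 0, was 1 without knockouts 3 and 11 together and 0 to 0 with 1 library left out. Mup3 was lower under all 23 alternatives, from -0.79 to -0.40, and passed in 15 (limma adjusted p between 0.0111 and 0.481). Mup20 was above 0 in all 23, from 0.12 to 1.24 (adjusted p between 0.0281 and 0.910). Mup17 passed in none of 22 (lowest limma adjusted p 0.0689), and with zeros as missing it gave no value. Without knockouts 3 and 11 all its values were 0, so that alternative could not pass. Signs changed for estimates that had not passed: Mup21 was 0.053 and Mup6 0.026 with the length trend removed, Mup4 0.33 and Mup6 0.19 without knockouts 3 and 11, and Mup5 -0.20 with library weights, -0.43 with the replicate block, -0.03 without wildtype 12 and -0.49 without knockout 9, with a range of -0.49 to 0.24 when 1 library was left out. With the length trend removed the median over the 6 Mup rows above 0 in every library was 0.04, and without knockouts 3 and 11 it was 0.26. The ratio of Mup20 to Mup3 stayed higher in the knockout with each library left out, by 0.91 to 1.40 on the log2 scale (exact permutation p = 0.0571 each).

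Over all tested genes 1195 were lower and 277 higher. The counts were 720 and 485 with median-ratio scaling, 652 and 470 with quantile normalization, 585 and 516 with the length trend removed, 812 and 549 with the GC trend removed, and 656 and 199 without knockouts 3 and 11. With 1 library left out they were 599 to 1294 and 102 to 360: dropping wildtype 1 gave 599 and 102, dropping wildtype 3 gave 896 and 160, dropping wildtype 10 gave 744 and 145, dropping wildtype 12 gave 745 and 193, and dropping knockout 3 gave 725 and 161. With the replicate block, which leaves the pairs numbered 3 and 10 to carry the comparison, they were 1 and 1, and Mup3 was at -0.76 (adjusted p = 0.481). The labels do not say that equal numbers mark pairs, and deviations from the group means correlated at -0.008 and 0.022 for these numbers, so the block is not read as a weaker effect. The cause of these differences was not tested. The 4 members at 0 in every library entered no fit, and what produced their zeros was not tested.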
